A study of Hevea brasiliensis with 2 samples.

Results

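Latex of the rubber tree is the cytoplasm of laticifers, the rubber-making cells of the bark, and its carbon arrives as sucrose. The unigenes described here are the enzymes and carriers of sucrose, starch and glycolysis that the deposited table of differentially expressed unigenes names. They were found by 17 search words in the text of the best Nr or Swissprot hit (2 protein databases), leaving out phosphatidyl compounds. The search gave 79 of 51192 unigenes (assembled transcript sequences), all from the 6726 that the authors called different between the clones. Sorting those 79 by their annotation text left 58 that belong to sugar transport, sucrose, starch, glycolysis and organic acid metabolism, and 21 that matched a word but belong elsewhere.

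The latex came from clones PR107 and CATAS8-79 of Hevea brasiliensis, named RY8-79 in the sample labels, with 1 library per clone. Both clones were untreated and tapped for the first time, and each library pooled the latex of several trees. The labels give an age of 3 years for both clones, while the methods of the study give an older one. The study chose the clones for their difference in latex regeneration and flow, and the comparison asks which transcripts differ between them.

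Sucrose unloaded from the phloem is split in the laticifer by sucrose synthase or invertase, and the hexoses are phosphorylated and pass through glycolysis to phosphoenolpyruvate and pyruvate. Pyruvate is turned into acetyl-CoA, the starting compound of the mevalonate pathway that makes the isoprene units of rubber, while phosphoenolpyruvate carboxylase and malate dehydrogenase direct carbon to malate. Starch, made and broken down in plastids, is another store of glucose units in the tissue around the laticifers.

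The PR107 library placed 6.87 and the CATAS8-79 library 6.92 times 1000000 reads on unigenes, and the median unigene had 40 reads in PR107 and 38 in CATAS8-79. No spread between trees or libraries of a clone can be measured here, and no p-value is given. Ratios are log2 of PR107 over CATAS8-79 at equal library totals, so a negative value means lower in PR107. Their 95% Clopper-Pearson intervals cover counting error only, and reads copied by PCR are not independent molecules. In a bulk sample, fewer cells of a type and less RNA per cell cannot be told apart. Names are given for called unigenes only, so the identity of the latex could be checked on few markers. A small rubber particle protein, Unigene823, had 274 reads in PR107 and 51 in CATAS8-79, and rubber elongation factor, hevein and cis-prenyltransferase were not among the called names. The primer list of the study names Unigene37088 as Hevea rubber transferase 2, the cis-prenyltransferase of rubber. It was not in the called table and had 6 reads in PR107 and 24 in CATAS8-79 (log2 ratio -1.99, -3.57 to -0.66). Green tissue names were held by 19 called unigenes, 10 of them higher in PR107 and 9 in CATAS8-79, with 8307 reads in PR107 and 15417 in CATAS8-79. Photosystem names gave most of these reads, 7723 in PR107 and 15118 in CATAS8-79, with 7 unigenes higher in PR107 and 8 in CATAS8-79. All 3 ribulose bisphosphate carboxylase unigenes were higher in PR107 (546 reads against 152). The 1 chlorophyll a-b binding unigene was lower in PR107 (38 against 147). The part of these green tissue names in the results below was not tested.

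The unigene sequences were not among the files used here. The study designed qPCR primers for some unigenes, and those of 2 members are shown because they fix which transcripts of sugar transport and starch breakdown are meant. They are written 5′ to 3′ in lower case, with no base singled out.
Unigene21420 forward: acagtgtagaaatgcgaggtt
Unigene21420 reverse: gcaggattcgggagaaa
Unigene39426 forward: ggagggcttaccacatt
Unigene39426 reverse: cttctcggccaactttt
The Unigene21420 pair has 21 and 17 bases with 42.9% and 52.9% G or C, and the Unigene39426 pair has 17 bases each with 52.9% and 47.1%. Unigene21420 is a beta-amylase. Unigene39426 stands in the primer list once as a sucrose transporter and once as a sugar transporter, and both deposited hits name sugar transporter ERD6-like 16, which belongs to another carrier family than the sucrose transporters.

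Of the 79 unigenes, 33 were higher in PR107 and 46 in CATAS8-79. They had been selected on the authors' call for this same contrast, so the split is a description and supports nothing by itself. Over all 51192 unigenes 13.1% were called, 7.25% as higher in PR107 and 5.89% as higher in CATAS8-79. These directions follow the clone named in each column header of the deposited tables. The published text ties its totals of up- and down-regulated unigenes to the clones the other way round, so every direction given here rests on the headers. For single genes the study's text runs with the headers where it places rubber transferase and several beta-amylases and sucrose transporters higher in CATAS8-79. By size alone, 25.3% of the 38870 unigenes with 20 or more reads over both libraries had a log2 ratio of 1 or more in either direction. Among all called unigenes 44.9% were higher in CATAS8-79, against 58.2% of the 79 and 63.8% of the 58 carbon supply unigenes. The median log2 ratio was -1.12 over the 79 and -1.15 over the 58, against 1.10 over all called unigenes. Called ratios lie beyond 1 or -1 by selection, so these medians only restate which side holds more unigenes. Over all unigenes, most of them not called, the median was 0.011. The members just inside the authors' threshold were Unigene3181 at -1.002, Unigene3404 at -1.01, Unigene43164 at 1.04 and Unigene8737 at 1.06. Unigenes just outside it carry no name and could not be listed.

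The 58 carbon supply unigenes had 8505 reads in PR107 and 13997 in CATAS8-79, a log2 ratio of -0.71 (-0.75 to -0.67). They fell into 30 enzyme or carrier families. In 15 families every called unigene was higher in CATAS8-79, in 11 every one was higher in PR107, and 4 held both directions. A single unigene made up 10 of those 15 families and 7 of those 11, so only the 13 families of 2 or more unigenes could have held both directions. Of the 79 members, 26 share an Nr text with another, so pieces of 1 transcript may count as several unigenes of a family. The families higher in CATAS8-79 included sucrose synthase, starch synthases, hexokinase, pyruvate kinase and phosphoenolpyruvate carboxylase. Those higher in PR107 included raffinose synthase, glyceraldehyde-3-phosphate dehydrogenase, phosphoglycerate kinase and, by Nr hit, the plastid phosphoenolpyruvate translocator.

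**Figure D1:**
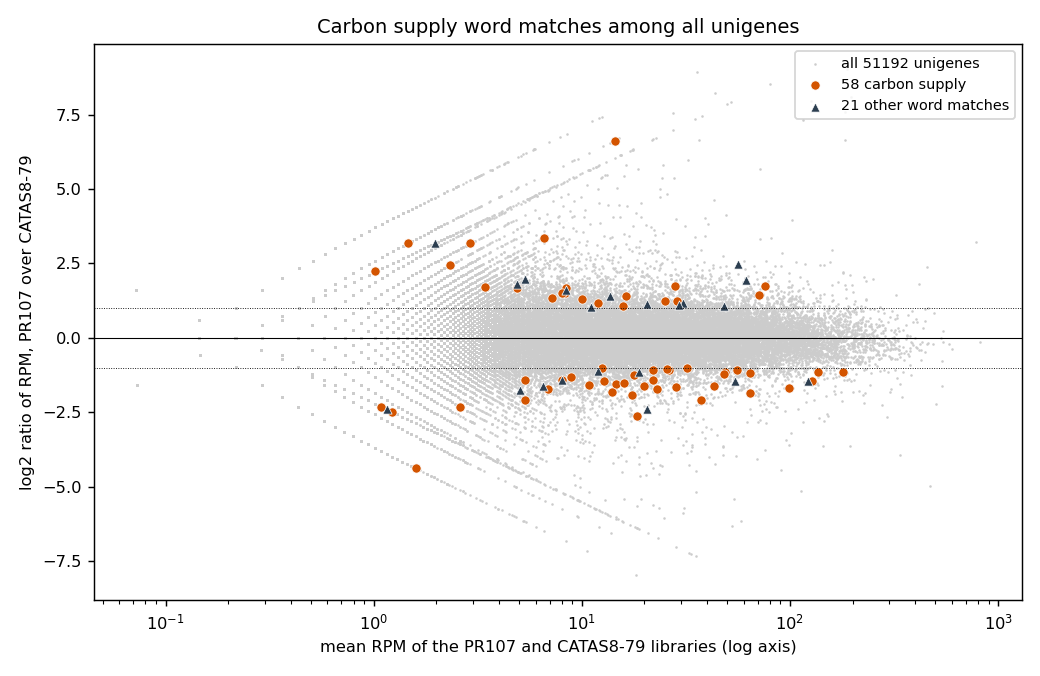
Each point is a unigene, with its mean RPM (reads per 1000000 reads) over both libraries on a log axis and its log2 ratio of PR107 over CATAS8-79 on the other; where 1 library had 0 reads, 3 reads were put in its place. The 58 carbon supply unigenes (orange circles) and the 21 other word matches (dark triangles) lie outside the dotted lines at 1 and -1, as the call requires, over the 51192 unigenes in grey.

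Carriers of sugar had 5 called unigenes, 2 of them higher in PR107 and 3 in CATAS8-79. Unigene13981, whose hit is sucrose transporter 3 of H. brasiliensis, a proton-coupled importer of sucrose, had 30 reads in PR107 and 81 in CATAS8-79 (17.6 and 47.2 RPKM, reads per kilobase of unigene and per 1000000 reads), a log2 ratio of -1.42 (-2.08 to -0.80). Unigene26894, a plastid glucose transporter that exports glucose from starch breakdown, had 37 reads in PR107 and 113 in CATAS8-79, a log2 ratio of -1.60 (-2.18 to -1.05). The ERD6-like carrier Unigene39426 had 0 reads in PR107 and 15 in CATAS8-79, at least 4.96-fold lower in PR107 when 3 reads are allowed for the 0.
The other 2 carriers went the opposite way. Unigene17207, a putative sugar transporter of unstated substrate, had 36 reads in PR107 and 4 in CATAS8-79, a log2 ratio of 3.18 (1.70 to 5.13). Unigene19659, similar to monosaccharide-sensing protein 3 of the vacuolar membrane, had 27 reads in PR107 and 5 in CATAS8-79 (2.44, 1.05 to 4.18). All 5 carriers together had 130 reads in PR107 and 218 in CATAS8-79, and none passed 50 RPKM in either clone.

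Sucrose synthase, which splits sucrose with UDP into fructose and UDP-glucose, held the 3 highest CATAS8-79 levels of the 58 carbon supply unigenes. Its 4 unigenes were all lower in PR107. Unigene12965 had 774 reads in PR107 and 1711 in CATAS8-79 (199 and 436 RPKM), Unigene6201 had 468 in PR107 and 1291 in CATAS8-79 (87.9 and 241 RPKM), Unigene20545 had 270 in PR107 and 618 in CATAS8-79 (113 and 257 RPKM) and Unigene29858 had 114 in PR107 and 239 in CATAS8-79 (51.2 and 107 RPKM).
Their log2 ratios were -1.13, -1.45, -1.18 and -1.06 in that order, and the authors' threshold bounds them on the side of smaller differences. Together they had 1626 reads in PR107 and 3859 in CATAS8-79, a log2 ratio of -1.24. All 4 have a sucrose synthase of cassava (Manihot esculenta) as their best hit, so pieces of 1 transcript and separate genes cannot be told apart. The other sucrose-splitting enzyme called, the neutral invertase Unigene41888, which hydrolyses sucrose in the cytosol or organelles, had 18 reads in PR107 and 2 in CATAS8-79, a 9.07-fold ratio with a counting interval of 2.17 to 80.6.

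Raffinose synthase, which transfers galactose from galactinol to sucrose, was higher in PR107 in both called unigenes. Unigene27328 had 710 reads in PR107 and 262 in CATAS8-79, a log2 ratio of 1.45 (1.24 to 1.66). Unigene40419, with the same cucumber hit, had 84 in PR107 and 30 in CATAS8-79, a 2.82-fold ratio (1.84 to 4.44), against 2.73-fold (2.37 to 3.16) for Unigene27328.

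**Figure D2:**
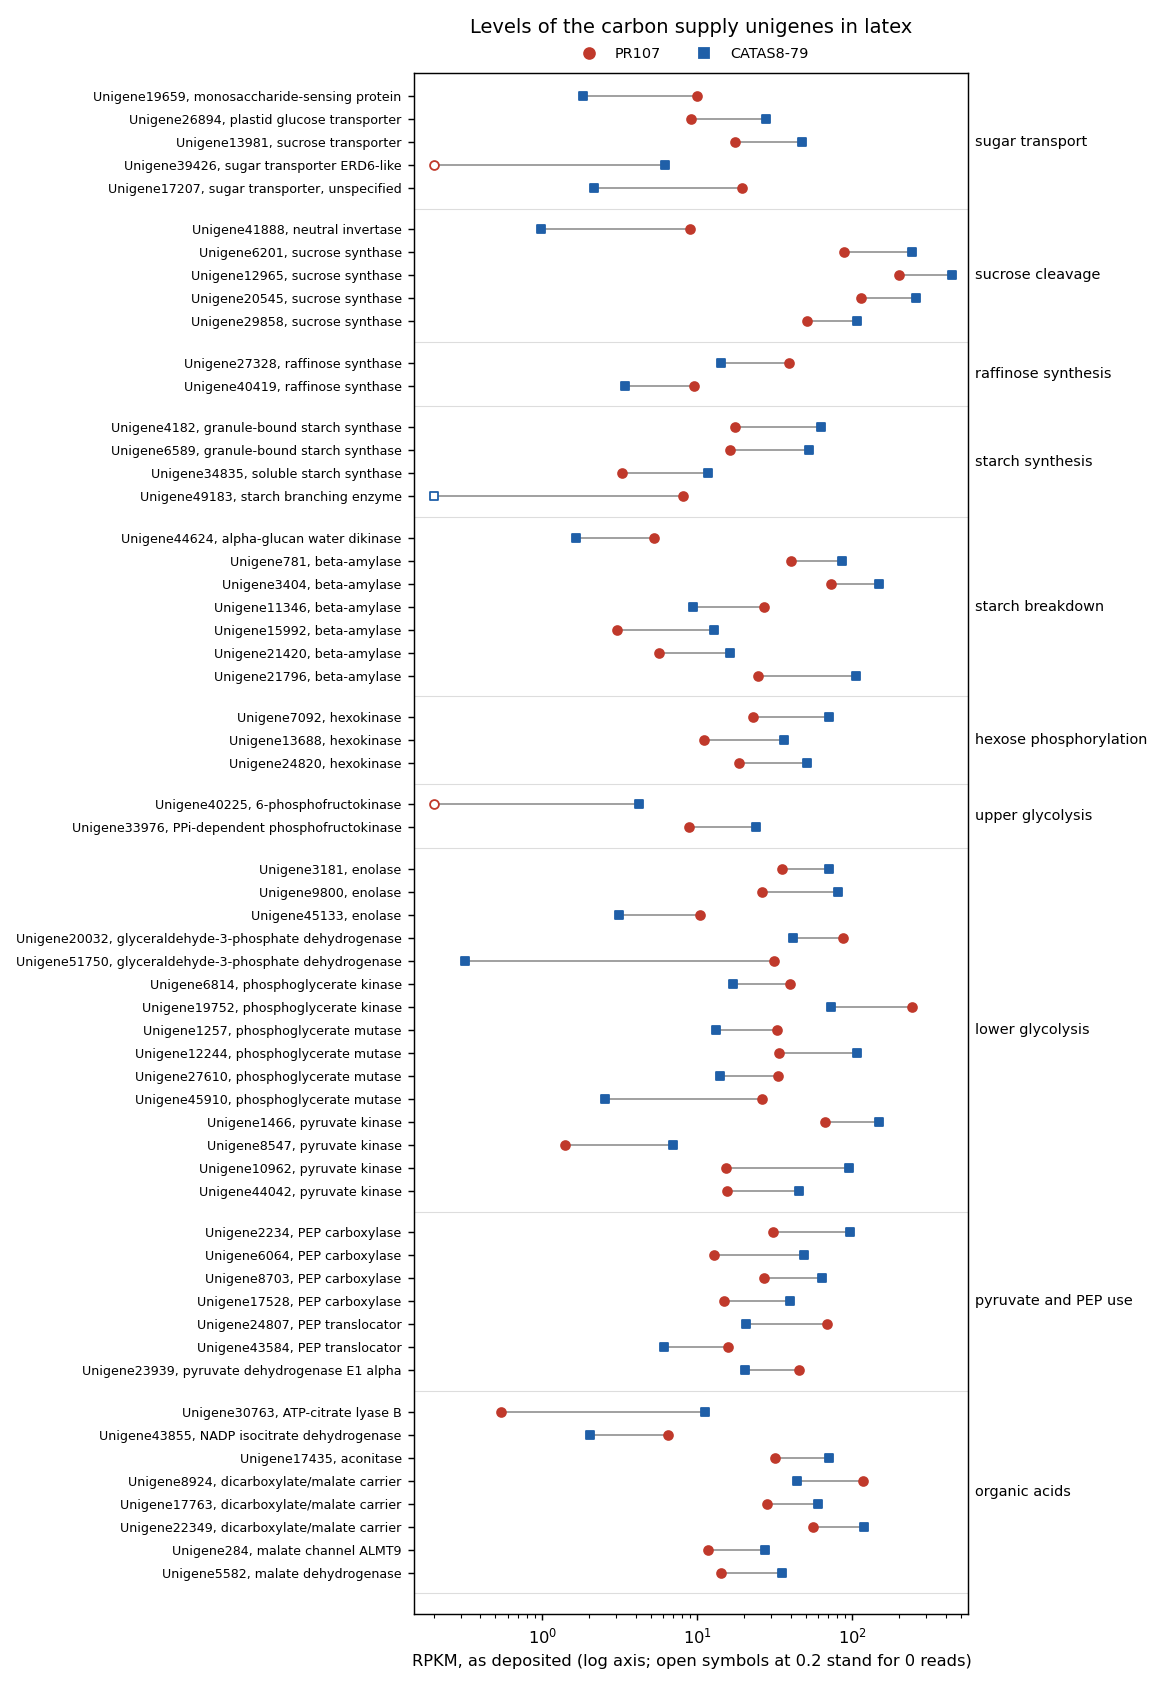
Deposited RPKM of the 58 carbon supply unigenes on a log axis, PR107 as red circles and CATAS8-79 as blue squares, 1 library each, grouped by pathway; an open symbol at the left stands for 0 reads. The 4 sucrose synthase unigenes lie toward the right, between 51.2 and 199 RPKM in PR107 and between 107 and 436 RPKM in CATAS8-79.

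Starch synthesis was represented by 4 called unigenes, and the 3 synthases were lower in PR107. Granule-bound starch synthase, which makes amylose, was named for Unigene4182, with 193 reads in PR107 and 695 in CATAS8-79, and for Unigene6589, with 74 in PR107 and 243 in CATAS8-79. Their log2 ratios were -1.84 (-2.08 to -1.61) and -1.70 (-2.10 to -1.32). The soluble starch synthase Unigene34835, which extends amylopectin chains, had 42 reads in PR107 and 151 in CATAS8-79 (-1.84, -2.36 to -1.33).
These 3 ratios are alike although the unigenes differ in level, at 17.6, 16.2 and 3.28 RPKM in PR107 and at 63.0, 52.6 and 11.7 RPKM in CATAS8-79. Unigene4182 and Unigene6589 share both hits, so pieces of 1 transcript and separate genes cannot be told apart. The fourth, the branching enzyme Unigene49183, which introduces the side chains of amylopectin, had 14 reads in PR107 and 0 in CATAS8-79. That is at least 4.70-fold higher in PR107 with 3 reads allowed for the 0.

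Beta-amylase, which releases maltose from starch, was named for 6 called unigenes, 1 higher in PR107 and 5 in CATAS8-79. By Swissprot hit, the 3 of beta-amylase 1 (Unigene781, Unigene3404 and Unigene21796) had 359 reads in PR107 and 962 in CATAS8-79 together, a log2 ratio of -1.41. The largest difference of the 3 was in Unigene21796, with 97 reads in PR107 and 418 in CATAS8-79 (-2.10, -2.43 to -1.77). The 2 of beta-amylase 2 were Unigene21420, with 57 reads in PR107 and 164 in CATAS8-79 (-1.51, -1.97 to -1.07), and Unigene15992, with 14 in PR107 and 60 in CATAS8-79 (-2.09, -3.04 to -1.23).
The exception was Unigene11346, whose Swissprot hit is beta-amylase 8, a nuclear regulator rather than a starch enzyme in Arabidopsis. It had 82 reads in PR107 and 29 in CATAS8-79, a log2 ratio of 1.51 (0.88 to 2.17). Starch is made accessible to these enzymes by alpha-glucan water dikinase, which phosphorylates it, and this dikinase (Unigene44624) had 88 reads in PR107 and 28 in CATAS8-79 (1.66, 1.04 to 2.33). Over all 7 unigenes sorted to starch breakdown by name, Unigene11346 among them, there were 600 reads in PR107 and 1243 in CATAS8-79, a log2 ratio of -1.04.

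Hexokinase, which phosphorylates glucose and fructose at the entry to glycolysis, was lower in PR107 in all 3 called unigenes. Unigene7092 had 145 reads in PR107 and 448 in CATAS8-79 (-1.62, -1.90 to -1.34), Unigene13688 had 22 in PR107 and 73 in CATAS8-79 (-1.72, -2.48 to -1.01) and Unigene24820 had 47 in PR107 and 130 in CATAS8-79 (-1.46, -1.97 to -0.97). They share 1 tobacco hit, hexokinase 6, and their intervals overlap. The step between fructose 6-phosphate and fructose 1,6-bisphosphate had 2 called unigenes. The ATP-using phosphofructokinase Unigene40225 had 0 reads in PR107 and 17 in CATAS8-79, at least 5.62-fold lower in PR107 with 3 reads allowed for the 0. The pyrophosphate-using enzyme, alpha subunit (Unigene33976), had 20 reads in PR107 and 54 in CATAS8-79 (-1.42, -2.24 to -0.66).

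Lower glycolysis, from triose phosphate to pyruvate, did not go one way. Its 15 called unigenes divided into 8 higher in PR107 and 7 in CATAS8-79, with 3000 reads in PR107 and 3669 in CATAS8-79. The summed reads changed sign along the order of the reactions, although these sums mix plastid and other forms. The place of the change rests on the phosphoglycerate mutase Unigene12244. Glyceraldehyde-3-phosphate dehydrogenase and phosphoglycerate kinase, which oxidise the triose and make the first ATP, had 4 unigenes, all higher in PR107, with 1383 reads in PR107 and 417 in CATAS8-79 (log2 ratio 1.74). Phosphoglycerate mutase, enolase and pyruvate kinase, which lead to pyruvate and the second ATP, had 11 unigenes with 1617 reads in PR107 and 3252 in CATAS8-79 (-0.997), and 7 of the 11 were lower in PR107.

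Among the glyceraldehyde-3-phosphate dehydrogenases, Unigene51750, with a cytosolic NAD-dependent hit, had 196 reads in PR107 and 2 in CATAS8-79. Its 98.7-fold ratio, with a counting interval of 27.0 to 821, was the largest of the 79 unigenes with reads in both libraries. Unigene20032 had 147 reads in PR107 and 70 in CATAS8-79 (1.08, 0.66 to 1.51). Both called phosphoglycerate kinases have chloroplast forms as their Swissprot hits. Unigene19752 had 798 reads in PR107 and 241 in CATAS8-79 (243 and 72.7 RPKM), a log2 ratio of 1.74 (1.53 to 1.95), and Unigene6814 had 242 in PR107 and 104 in CATAS8-79 (1.23, 0.89 to 1.58). In RPKM, Unigene19752 was the highest of the 58 carbon supply unigenes in PR107.

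Phosphoglycerate mutase, which moves the phosphate from position 3 to position 2 of glycerate, had 3 unigenes higher in PR107 and 1 in CATAS8-79. The single unigene Unigene12244, with 325 reads in PR107 and 1045 in CATAS8-79 (-1.67, -1.86 to -1.49), set the sign of the family. With it the family had 781 reads in PR107 and 1211 in CATAS8-79, a log2 ratio of -0.62, and without it 456 in PR107 and 166 in CATAS8-79, a ratio of 1.47. Unigene27610 has the same best hits as Unigene12244 and yet had 276 reads in PR107 and 118 in CATAS8-79 (1.24, 0.92 to 1.56). In Unigene45910 there were 82 reads in PR107 and 8 in CATAS8-79 (3.37, 2.32 to 4.63), and in Unigene1257 98 in PR107 and 40 in CATAS8-79 (1.30, 0.76 to 1.87). The family joins different enzymes. Unigene1257 has a 2,3-bisphosphoglycerate-independent mutase as its hit, while Unigene12244 and Unigene27610 have a 2,3-bisphosphoglycerate-dependent one as their Swissprot hit.

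Enolase, which makes phosphoenolpyruvate, differed in sign between its plastid form and the others. The 2 unigenes with an enolase 1 hit, among them Unigene3181, whose hit is the Hevea latex allergen Hev b 9, had 124 reads in PR107 and 322 in CATAS8-79 together (-1.37). Unigene3181 itself had 57 reads in PR107 and 115 in CATAS8-79, and Unigene9800 had 67 in PR107 and 207 in CATAS8-79. The plastid enolase Unigene45133 had 36 reads in PR107 and 11 in CATAS8-79 (1.72, 0.72 to 2.84).

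Pyruvate kinase, the last enzyme of glycolysis, was lower in PR107 in all 4 called unigenes, with 676 reads in PR107 and 1708 in CATAS8-79 (-1.33). Unigene1466, cytosolic, gave most of these reads, 584 in PR107 and 1308 in CATAS8-79 (66.3 and 147 RPKM), at a log2 ratio of -1.15 (-1.30 to -1.01). The other 3 had larger differences, with 92 reads in PR107 and 400 in CATAS8-79 together (-2.11). In Unigene10962, cytosolic, 35 reads in PR107 stood against 219 in CATAS8-79 (-2.63, -3.19 to -2.11). The plastid isozyme Unigene8547 was low in both clones, with 6 reads in PR107 and 30 in CATAS8-79 (-2.31, -3.87 to -1.02), and Unigene44042 had 51 in PR107 and 151 in CATAS8-79.

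**Figure D3:**
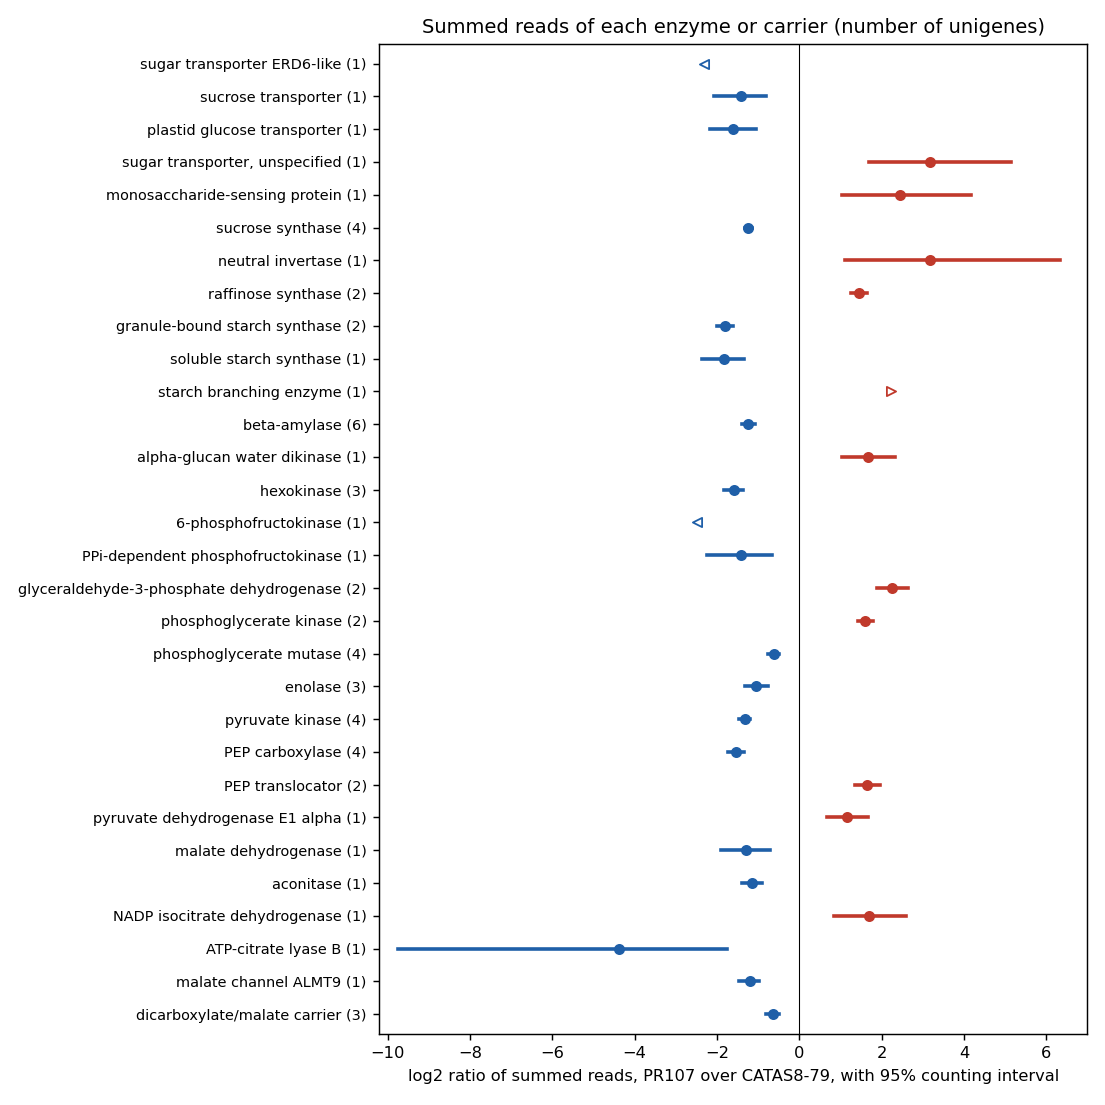
Log2 ratio of the summed reads, PR107 over CATAS8-79, for each of the 30 enzyme or carrier families, ordered along the pathway, with the number of called unigenes in brackets; bars are 95% counting intervals and open triangles mark families with 0 reads in 1 library, drawn with 3 reads in its place. In these sums the sign within lower glycolysis changes between phosphoglycerate kinase at 1.60 and phosphoglycerate mutase at -0.62. Unigene12244 alone sets the negative sign of the mutase, whose other 3 unigenes were higher in PR107. The place of the change therefore rests on that unigene.

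Phosphoenolpyruvate has several fates, and their unigenes differed in direction. Phosphoenolpyruvate carboxylase, which fixes bicarbonate to form oxaloacetate, was lower in PR107 in all 4 called unigenes, with 300 reads in PR107 and 882 in CATAS8-79 (-1.54). Their ratios ran between -1.92 in Unigene6064 (50 reads in PR107 and 191 in CATAS8-79) and -1.23 in Unigene8703 (73 in PR107 and 173 in CATAS8-79). The other 2, Unigene2234 and Unigene17528, had 94 and 83 reads in PR107 and 296 and 222 in CATAS8-79.
The phosphoenolpyruvate translocator by Nr hit, which carries it into plastids, went the other way. Unigene24807 had 297 reads in PR107 and 90 in CATAS8-79 (1.73, 1.39 to 2.09), and Unigene43584 had 71 in PR107 and 28 in CATAS8-79 (1.35, 0.70 to 2.04). Both have a triose phosphate/phosphate translocator of non-green plastids as their Swissprot hit, so the text does not settle what they carry. The alpha subunit of mitochondrial pyruvate dehydrogenase (Unigene23939), which opens the route from pyruvate to acetyl-CoA, had 113 reads in PR107 and 51 in CATAS8-79 (1.16, 0.67 to 1.67).

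Organic acid metabolism had 8 called unigenes, 2 higher in PR107 and 6 in CATAS8-79, with 999 reads in PR107 and 1852 in CATAS8-79 (-0.88). Mitochondrial malate dehydrogenase (Unigene5582) had 35 reads in PR107 and 87 in CATAS8-79. Aconitase, which isomerises citrate (Unigene17435), had 208 in PR107 and 465 in CATAS8-79. The malate channel ALMT9 of the vacuole by Nr hit (Unigene284), whose Swissprot hit is an uncharacterized protein, had 200 in PR107 and 466 in CATAS8-79. These 3 had log2 ratios of -1.30, -1.15 and -1.21.
The B subunit of ATP-citrate lyase, which makes cytosolic acetyl-CoA from citrate (Unigene30763), had 1 read in PR107 and 21 in CATAS8-79, a 20.8-fold lower level in PR107 with a counting interval of 3.35 to 862. NADP isocitrate dehydrogenase (Unigene43855) had 51 reads in PR107 and 16 in CATAS8-79 (1.68, 0.85 to 2.59). Among the malate carriers, the plastid one (Unigene8924) had 162 in PR107 and 62 in CATAS8-79 (1.40). The mitochondrial ones were lower in PR107, with 245 reads in PR107 and 527 in CATAS8-79 for Unigene17763 (-1.09) and 97 in PR107 and 208 in CATAS8-79 for Unigene22349 (-1.09).

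Plastid forms were marked in the annotation text of 17 of the 58 unigenes, 7 of them higher in PR107 and 10 in CATAS8-79. They had 2476 reads in PR107 and 2982 in CATAS8-79, a log2 ratio of -0.26. The 41 others had 6029 in PR107 and 11015 in CATAS8-79, a ratio of -0.86. The plastid enolase, malate carrier, phosphoenolpyruvate translocators by Nr hit, phosphoglycerate kinases and glucan water dikinase were higher in PR107. The plastid beta-amylases, starch synthases, glucose transporter and pyruvate kinase were lower in PR107.

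The direction also went with the number in the unigene name, whose meaning is not given in the sources used here. With a number of 40000 or above there were 11 carbon supply unigenes, 9 of them higher in PR107 and 2 in CATAS8-79. With a lower number there were 47, 12 of them higher in PR107 and 35 in CATAS8-79. The same held for all called unigenes, of which 17.0% were higher in CATAS8-79 at 40000 or above (309 of 1815) and 55.1% below (2708 of 4911). Without the unigenes numbered 40000 or higher, the 64 remaining members had 11381 reads in PR107 and 17150 in CATAS8-79, a log2 ratio of -0.58. The part of the unigene number in the single results was not tested. Length moved with the direction less, with 11 of 29 carbon supply unigenes under 500 bp higher in PR107 and 10 of 29 at 500 bp or longer.

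The 21 other word matches had 12 unigenes higher in PR107 and 9 in CATAS8-79, with 3891 reads in PR107 and 3563 in CATAS8-79 (0.14). The 3 kinases with a soybean phosphoenolpyruvate carboxylase kinase as the Nr hit were all higher in PR107. They had 652 reads in PR107 and 119 in CATAS8-79 (Unigene14572), 672 in PR107 and 176 in CATAS8-79 (Unigene23584), and 290 in PR107 and 130 in CATAS8-79 (Unigene17796), a joint log2 ratio of 1.94. Their Swissprot hits are calcium-dependent protein kinases, so the text does not settle which kinase family they belong to. A homologue of yeast SNF4, the gamma subunit of an energy-sensing kinase (Unigene43164), had 102 reads in PR107 and 50 in CATAS8-79.
Enzymes of leucine synthesis, which matched the word for malate, were lower in PR107 in all 3 unigenes, with 577 reads in PR107 and 1653 in CATAS8-79 (-1.51). The largest difference was in the isopropylmalate dehydratase Unigene26008, with 45 in PR107 and 239 in CATAS8-79 (-2.40, -2.89 to -1.93), and the most reads were in Unigene23643, with 452 in PR107 and 1235 in CATAS8-79. DAHP synthase, the first enzyme of the shikimate pathway and a consumer of phosphoenolpyruvate, was split. Unigene8737 had 448 reads in PR107 and 217 in CATAS8-79, while Unigene12186 had 200 in PR107 and 556 in CATAS8-79 and Unigene28215 had 30 in PR107 and 81 in CATAS8-79, all with 1 poplar hit.
KDO8P synthase, which also uses phosphoenolpyruvate and makes a sugar of pectin, was split too. There were 194 reads in PR107 and 88 in CATAS8-79 for Unigene3419 and 16 in PR107 and 54 in CATAS8-79 for Unigene32572. The latter has this name by its Swissprot hit only, and its Nr hit is an Arabidopsis sequence without an enzyme name. Dihydroneopterin aldolase of folate synthesis (Unigene49529) had 27 reads in PR107 and 0 in CATAS8-79, at least 9.07-fold higher in PR107 with 3 reads allowed for the 0. Unigene22569, whose Nr hit is called low-level beta-amylase 1, had 52 reads in PR107 and 15 in CATAS8-79, and its Swissprot hit is a regulator of nonsense transcripts. A SEC14-like lipid transfer protein (Unigene30555) had 0 reads in PR107 and 16 in CATAS8-79, at least 5.29-fold lower in PR107. The 6 others were 2 more SEC14-like proteins, a spinster-like and a nucleotide-sugar transporter, all 4 higher in PR107, and a phosphorylmutase and a lipid transfer protein, both lower in PR107. Their log2 ratios lay between 1.09 and 1.96 for those higher in PR107 and were -1.12 and -1.62 for the others.

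For context, 18 enzymes of the same or adjoining pathways that the search words leave out were looked up by name. Trehalose metabolism, a group of enzymes, was counted as 1 of them, and 12 of the 18 had a called unigene. These gave 26 unigenes, 8 higher in PR107 and 18 in CATAS8-79, with 3065 reads in PR107 and 4265 in CATAS8-79 (-0.47). After the values were seen, 5 of the 26 were set apart because their Swissprot hit is another protein than the enzyme looked up. They were Unigene34885, Unigene43487, Unigene43631, Unigene23579 and Unigene19475, 4 higher in PR107 and 1 in CATAS8-79. Unigene6081, lower in PR107, was kept although its Swissprot hit is an uncharacterized glycosyl hydrolase. Without the 5 set apart, 8 of the 18 enzymes had 21 unigenes, 4 higher in PR107 and 17 in CATAS8-79. These had 2304 reads in PR107 and 3809 in CATAS8-79 (-0.71, -0.79 to -0.64). Trehalose metabolism made up 8 of the 26, all lower in PR107, with 537 reads in PR107 and 1472 in CATAS8-79 (-1.44, -1.59 to -1.30). These 8 are among the 18 higher in CATAS8-79 and weigh on both joint ratios, which were not computed without them. Trehalose 6-phosphate is a signal of sucrose status in plants. Unigene6081, a trehalose 6-phosphate phosphatase by its Nr hit, had 230 reads in PR107 and 558 in CATAS8-79, and Unigene22338, similar to the catalytic synthase TPS1 of Arabidopsis, had 6 in PR107 and 65 in CATAS8-79 (-3.43, -4.92 to -2.23).
The mitochondrial malic enzyme, which turns malate into pyruvate, was split, with 194 reads in PR107 and 506 in CATAS8-79 for Unigene15123 and 142 in PR107 and 66 in CATAS8-79 for Unigene46397. Both further aconitases and both acetyl-CoA carboxylases were lower in PR107, the carboxylases with 174 reads in PR107 and 386 in CATAS8-79. Triosephosphate isomerase, which interconverts the triose phosphates, was split as well, with 284 reads in PR107 and 97 in CATAS8-79 for the type II form (Unigene15657) and 33 in PR107 and 74 in CATAS8-79 for the type I form (Unigene42674). No called unigene carried the name of the other 6 enzymes, among them glucose-6-phosphate isomerase and glucan phosphorylase, and unigenes that were not called carry no name.

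**Figure D4:**
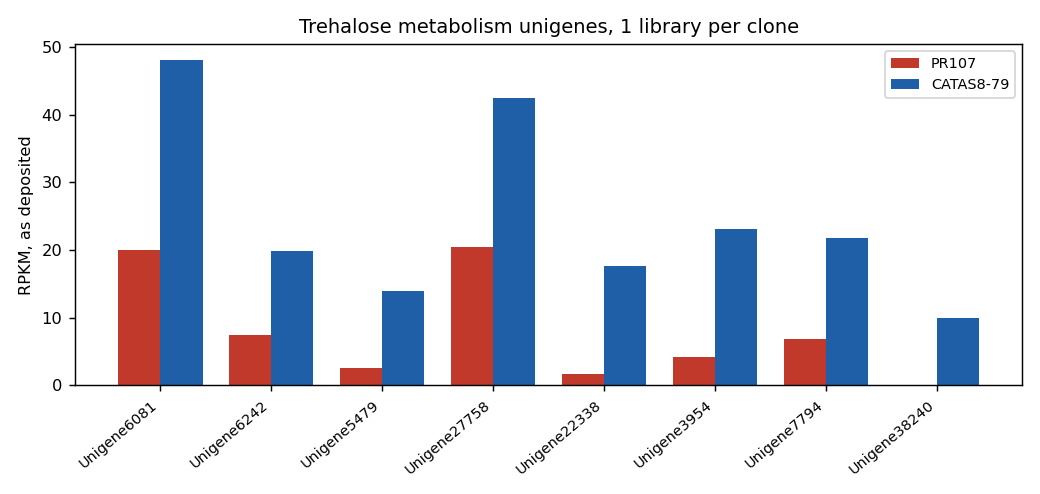
Deposited RPKM of the 8 called trehalose metabolism unigenes, with PR107 as the left bar and CATAS8-79 as the right bar of each pair, 1 library each and so without error bars. The PR107 bar is the shorter in all 8 pairs, and Unigene38240 had 0 reads in PR107 and 19 in CATAS8-79.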

How the data were processed

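Per the methods, the authors sequenced latex RNA on an Illumina HiSeq instrument, assembled unigenes de novo with SOAPdenovo, and named each by its best BLAST hit. For every unigene the authors deposited the read count and the RPKM (reads per kilobase, scaled to 1000000 reads) in each library, although the methods speak of normalised tags. Best hits accompany called unigenes only. The deposited log2 ratio, p-value and FDR are the authors' own comparison and were not used, apart from the table of called unigenes that defined the members. Columns were assigned to clones by the digits of the clone name in their headers, and 0 sample columns had no clone. The paper's text words its up and down totals for the opposite clones, and the headers were followed.

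From the counts, log2 ratios against library totals were computed with 95% Clopper-Pearson intervals, which were checked on simulated counts. A 0 was set to 3 reads for a bound. The quasi-likelihood test of edgeR cannot be fitted with 1 library per clone. Summed RPKM, length and read filters, the text searched, other weights, and the scaling factors of edgeR 4.0.16 (TMM) and DESeq2 1.42.0 were tried as alternatives. Members and lists were chosen with earlier results of these data known, and the sorting into families was made on annotation text after the values were seen. Named unigenes were, in each step formed by ordered search words, the one with the most reads, the most different in each direction with more than 3 reads per library, all with 3 or fewer reads in a library, and 5 named in the study or an earlier summary. Further unigenes were named, after their values were seen, to complete families. Scripts ran in R 4.3.3 and in Python 3.11.15 with scipy 1.17.1, pandas 2.3.3, matplotlib 3.10.9 and numpy 2.4.6.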

Additional observations from a re-analysis of the deposited data

How the results depend on the processing

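The 1-library design set the main limit, since no replicate could be left out. No paired analysis was possible because each clone has 1 library. TMM and median-ratio scaling shift all log2 ratios alike, by -0.046 and -0.029. Members have ratios of about 1 or more in size by selection, so their signs could not change, and 1 member came under 1 in size with TMM. The count of 46 unigenes higher in CATAS8-79 became 24 when unigenes of 500 bp or longer were used, as fewer were counted. The joint log2 ratio of the 79 was -0.49, and it became -0.54 with TMM, -0.67 at 500 bp or longer, -0.44 with the Nr text only, -0.82 with the Swissprot text only, -0.58 with the longest unigene per Nr hit, -0.59 with unigenes of a named step, -0.71 with the 58 sorted ones, -0.58 without unigenes numbered 40000 or higher, -0.40 with summed RPKM, -0.44 without the top unigene and -1.12 as the median. The 2 choices by sorting and by number were made after seeing the data.

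Steps formed by ordered search words mixed enzymes, so the text above uses families, which were not run under these alternatives. The word steps kept no single direction in 5 of 11 cases, and the cause was not tested. For side reactions and regulators the sum of -0.34 became -1.40 at 500 bp, -1.25 with the longest per hit, 0.058 with RPKM, 0.45 without the top unigene and -1.12 as the median. For sugar transport 0.081 became -1.67 with Swissprot, -0.73 after sorting, -0.18 with RPKM, 0.69 without the top unigene and 1.60 as the median. For upper glycolysis, which held only KDO8P synthases by the words, 0.58 became -1.74 without the top unigene and -0.30 as the median. For lower glycolysis -0.17 became -0.42 at 500 bp, 1.14 with Nr, -0.34 with Swissprot, -0.24 with the longest per hit, -0.28 after sorting, 0.012 with RPKM, 0.16 without the top unigene and 1.09 as the median. For pyruvate and phosphoenolpyruvate use 0.71 became 0.82 at 500 bp, -1.16 with Swissprot, 0.36 with the longest per hit, -0.42 after sorting, 0.42 without the top unigene and 1.16 as the median.

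The other steps kept their sign. Sucrose cleavage moved from -1.22 to -1.40 with the longest per hit and -1.13 as the median, and starch synthesis from -1.74 to -1.50 with RPKM. Starch breakdown moved from -0.97 to -1.40 at 500 bp, -1.24 with Swissprot and -0.64 without the top unigene. Malate and citrate metabolism moved from -1.14 to -1.30 with Swissprot, -0.88 after sorting, -0.96 with RPKM and -1.003 without the top unigene. Other hexose entries moved from 1.40 to 1.04 with Nr. The enzymes looked up by name moved from -0.47 to -0.71 without the 5 unigenes set apart by their Swissprot hit, a choice made after seeing the data.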
